A study of Danio rerio with 6 samples.

Results

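The genes described here are 10 transcription factors that drive or accompany the making of neurons: the proneural factors ascl1a, ascl1b and atoh7, the neuronal differentiation factors neurod1 and neurod4, the zinc finger factors insm1a and insm1b, and the SoxC factors sox4a, sox11a and sox11b. They were chosen by symbol from the deposited table of adult retina, which lists 14781 genes, and all 10 were found in it. A gene was tested where 3 or more libraries held a normalised read count of 10 or above, a condition met by 11335 genes. All 10 factors met it in wild type alone and in every library, the lowest value being 23.2 for insm1b in wild-type replicate 2.

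Proneural factors such as Atoh7 are basic helix-loop-helix (bHLH) proteins that bind DNA as dimers with E proteins, and Id proteins hold them back by capturing those partners. A cell with much proneural protein makes Delta ligands, which activate Notch in its neighbours and keep these from becoming neurons. NeuroD and Insm1 factors act later, around the last divisions, and SoxC proteins, which bind DNA through an HMG box, switch on genes of young neurons. In the zebrafish retina atoh7 is needed for ganglion cells, neurod1 works in photoreceptor precursors, and ascl1a with insm1a is needed when Müller glia, the resident glia of the retina, return to division after injury. The adult fish retina goes on adding neurons, from stem cells at its margin and from rod progenitors.

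The study took retinas of 3 wild-type fish and of 3 carrying 2 copies of the stl888 allele of samd7 (samd7-/-), the gene of a photoreceptor protein with a SAM domain that works with Polycomb repressors. All were males of 3 months from crosses between heterozygotes, and every cell of a mutant carries the mutation. Each library was made from both retinas of 1 fish, so replicates were separate animals. The comparison asked what the loss of samd7 does to the identity of retinal cells.

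The libraries held between 20186266 and 29117026 reads in genes. The samd7 transcript stood at 4196, 4557 and 5186 in wild type and at 2471, 5121 and 3642 in the mutants, and the groups overlapped, so that its level does not check the genotype labels. As a check of the tissue, all 14 rod and 15 cone markers that the table holds passed the filter on low values. Of 15 lens markers, crygm2d1, crygm2d2 and crygm2d12 were at 0 in all libraries, and the 15 together summed to between 126 and 282. Values below are normalised read counts, which are reads divided by the size factor of the library. The deposited table gives no transcript lengths, so levels of different genes are not compared. A log2 change is the mutant mean of log2(value + 1) less that of wild type, given with its standard error (SE), and adjusted p is from limma over all 11335 genes with a threshold of 0.05.

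Of the 10 factors, 3 rose in the mutants, namely insm1a, sox11b and ascl1a, and none fell. Of all genes tested, 2.61% were called in either direction, 0.829% higher and 1.78% lower. None of the 10 was called lower by edgeR, DESeq2 or voom either. At an unadjusted p under 0.05 none was lower and 6 were higher, as were 9.38% of all genes. In total, 2377 of the 11335 genes had an unadjusted p under 0.05, and 1063 of these were higher. All 10 log2 changes were positive, as were 51.6% of those of all genes. Their median was 1.12, against 0.013 over all genes. In 7 of the 10 every mutant lay above every wild-type fish, which held for 13.3% of all genes, and the reverse held for 14.8%. The factors were chosen with earlier results of these data known, so these figures describe them and are not a test. A bulk library cannot tell more cells that express a gene from more RNA of it per cell, and this holds for each result below.

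**Figure D1:**
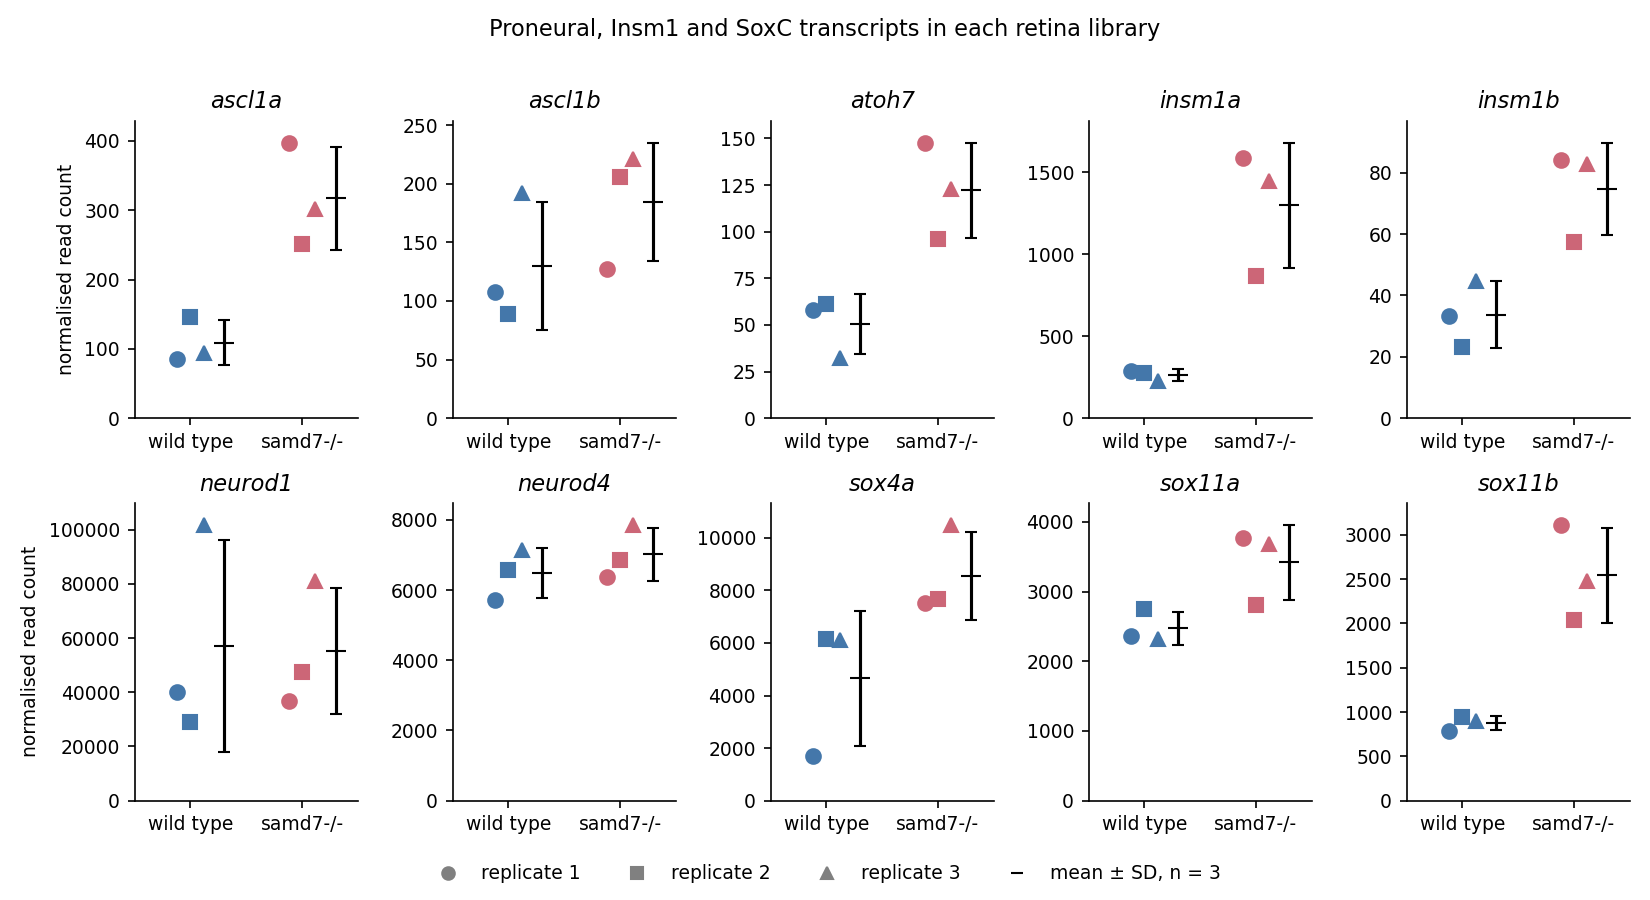
Normalised read count (linear axis from 0) of each factor in the 3 wild-type and 3 samd7-/- libraries; symbols mark the replicate number and the bar gives mean ± SD with n = 3 fish. The genotypes are apart for all genes except ascl1b, neurod1 and neurod4, and the largest ratio of means is that of insm1a, with 225 to 290 in wild type and 866 to 1585 in the mutants.

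Of the proneural factors, ascl1a rose 2.92-fold. In the order of replicates 1, 2 and 3, wild-type fish held 85.8, 146 and 94.2 normalised reads and the mutants 398, 251 and 302, and this order is kept below. The lowest mutant was well above the highest wild-type fish, which was replicate 2. Means were 109 ± 32.6 and 317 ± 74.4 (SD, n = 3 each; log2 change 1.55, SE 0.27, adjusted p = 0.0408). Its copy ascl1b was at 108, 89.2 and 192 in wild type and at 127, 206 and 221 in mutant fish. These groups overlapped, since wild-type replicate 3 stood above mutant replicate 1, and ascl1b stayed short of the threshold (log2 change 0.55, 95% interval -0.28 to 1.37, adjusted p = 0.416). The ganglion cell factor atoh7 was at 57.8, 61.4 and 32.2 in wild type and at 147, 96.3 and 123 in the mutants. Here the genotypes were apart by 96.3 against 61.4, but the gene missed the threshold (log2 change 1.29, SE 0.32, 95% interval 0.54 to 2.05, adjusted p = 0.0849). Its values rest on few reads, 28 to 66 per wild-type library, where counting alone gives a coefficient of variation of 15%, beside the 31.6% measured between fish.

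The call of ascl1a was the least stable of the 3. It was lost when any library was left out, with adjusted p = 0.0523 and 0.0546 without wild-type replicate 1 and mutant replicate 2, 0.0778 and 0.0936 without wild-type replicates 2 and 3, and 0.162 and 0.180 without mutant replicates 1 and 3. Its log2 change stayed between 1.37 and 1.78 in these fits.

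Both Insm1 copies were higher in every mutant, and insm1a had the largest log2 change of the 10 factors in the limma fit. Insm1 proteins are SNAG-domain repressors of cells that leave division to become neurons or endocrine cells. The gene insm1a was at 290, 277 and 225 in wild type and at 1585, 866 and 1449 in the mutants. Wild-type fish were close together, with a coefficient of variation of 13.0%, and the mutants were spread over a 1.83-fold range with replicate 2 lowest. Means of 264 ± 34.2 and 1300.1 ± 382 make a rise of 4.93-fold (log2 2.26, SE 0.24, adjusted p = 0.0133), and the gene was number 35 of all genes by p. Leaving out wild-type replicate 2, or of the mutants replicate 1 or 3, ended its call, with adjusted p of 0.0778, 0.0677 and 0.101. The copy insm1b was much less covered, with 20 to 39 reads per wild-type library and 55 to 98 per mutant library. It was at 33.3, 23.2 and 44.8 in wild type and at 84.0, 57.5 and 82.9 in the mutants, a ratio of 2.22 without overlap. The change missed the threshold (log2 1.15, SE 0.33, 95% interval 0.38 to 1.93, adjusted p = 0.111). In wild type its coefficient of variation was 32.1%, where counting alone gives 18.4%.

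The NeuroD factors gave no call in the limma fit. NeuroD proteins are bHLH factors that act after the proneural step, when cells stop dividing and take on neuronal form. For neurod4, wild-type fish were at 5719, 6580 and 7132 and the mutants at 6372, 6852 and 7852. The groups overlapped, and both had a small coefficient of variation, 11% for wild type and 10.7% for mutant fish. The 95% interval of its log2 change, -0.18 to 0.42, was the narrowest of the 10 (estimate 0.12, adjusted p = 0.647). For neurod1, wild-type fish were at 40181, 29103 and 101758 and the mutants at 36779.7, 47414 and 81285. Replicate 3 was the highest in both genotypes, and wild-type fish differed among themselves 3.50-fold, while the genotype means stood at a ratio of 0.967. The log2 change of neurod1 was 0.084 with a 95% interval of -1.16 to 1.33 (adjusted p = 0.947), an interval that holds a 2-fold change in either direction. The sign of this change depended on the setting, being negative in 5 of 18 alternatives. Counting alone gives a coefficient of variation of 0.493% in wild type, where 68.7% was measured between fish.

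The SoxC genes were all higher in every mutant than in every wild-type fish, by unequal amounts. SoxC proteins act in newborn neurons, and in the mouse retina Sox4 and Sox11 are needed for ganglion cells. The gene sox11b was at 783, 942 and 902 in wild type and at 3111, 2043 and 2477 in the mutants. Wild type was tight, with a coefficient of variation of 9.41%, and the lowest mutant, replicate 2, was far above the highest wild-type fish. The rise was 2.91-fold between means of 876 ± 82.4 and 2544 ± 537 (log2 1.52, SE 0.17, adjusted p = 0.0133). Leaving out wild-type replicate 2 or mutant replicate 3 ended the call, with adjusted p of 0.0778 and 0.103. Its copy sox11a was at 2358, 2743 and 2318 in wild type and at 3773, 2804 and 3682 in the mutants. Mutant replicate 2 was only just above wild-type replicate 2, and sox11a missed the threshold (2473 ± 235 and 3420 ± 535, log2 change 0.46, SE 0.14, 95% interval 0.12 to 0.80, adjusted p = 0.139). The gene sox4a was at 1681, 6153 and 6113 in wild type and at 7515, 7683 and 10486 in the mutants. Wild-type replicate 1 stood far below all other libraries, which widened the interval of the log2 change to -0.16 to 2.33 (estimate 1.09, adjusted p = 0.294). Without that library the log2 change was 0.46 (adjusted p = 0.160). The remaining SoxC gene of zebrafish, sox4b, which is not among the 10, was at 50.8, 75.3 and 40.2 in wild type and at 88.7, 96.3 and 82.1 in mutants, apart but short of the threshold (log2 0.72, SE 0.28, adjusted p = 0.209).

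The ratio between copies of the same ancestral gene was apart between genotypes in the Insm1 and Sox11 pairs, without a test that could pass with 3 fish a genotype. The log2 ratio of the first copy to the second was taken in each library, which removes library scaling, and 4 pairs were compared. Gene length still enters each ratio and cancels only in the difference between genotypes. For sox11a over sox11b the log2 ratio was 1.59, 1.54 and 1.36 in wild type and 0.28, 0.46 and 0.57 in mutant fish. The mutants were thus lower in every fish, by 1.06 on the log2 scale (exact two-sided permutation test, p = 0.1, 0.2 adjusted over the 4 pairs). For insm1a over insm1b it was 3.08, 3.52 and 2.30 in wild type and 4.22, 3.89 and 4.11 in the mutants. Every mutant was again apart from wild type, here higher by 1.1 (exact p = 0.1, adjusted 0.2). With 3 against 3 fish, 0.1 is the smallest p this test can give, so neither pair can pass the threshold. For ascl1a over ascl1b the ratio overlapped, at -0.32, 0.70 and -1.02 in wild type and 1.64, 0.28 and 0.45 in the mutants (difference 1.0, exact p = 0.3, adjusted 0.4). For sox4a over sox4b the difference of 0.37 was within the spread of wild type, whose SD was 1.1 (exact p = 0.8, adjusted 0.8). It turned to -0.22 without wild-type replicate 1. Reads that match both copies of a pair equally well could be divided or dropped by the counting, and its settings are not given in the sources.

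**Figure D2:**
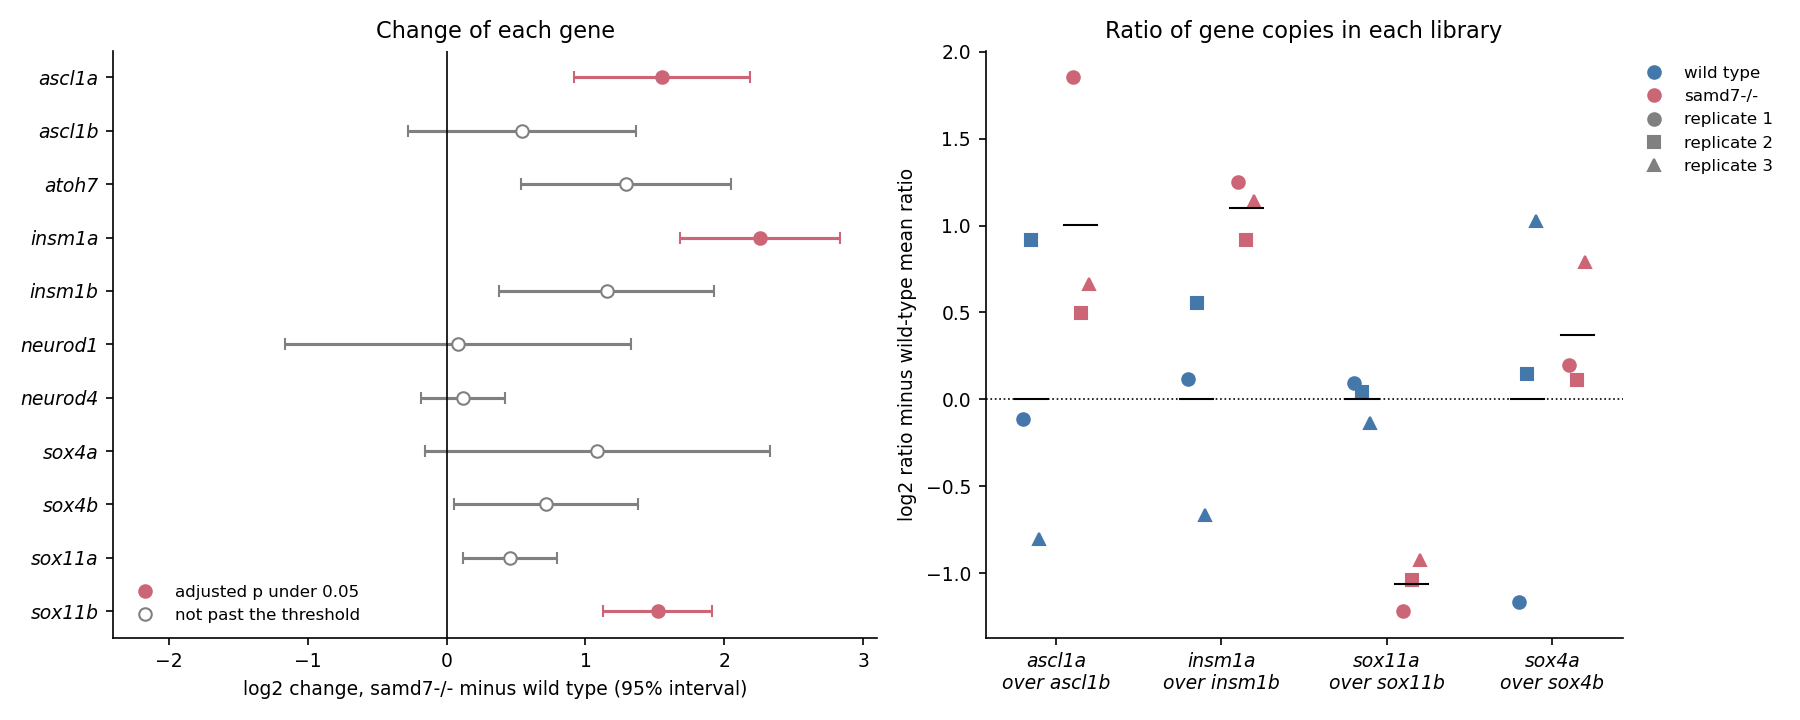
Left, log2 change (mutant minus wild type, limma) with its 95% interval for the 10 factors and sox4b; filled points passed an adjusted p of 0.05. Right, log2 ratio of paired copies in each library after subtracting the wild-type mean of the pair; short lines are genotype means, and the genotypes are apart for the insm1 pair (1.1 higher) and the sox11 pair (1.06 lower).

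Of the 10 factors, 6 shared an order among the mutant fish, and all 6 were among the 7 that were apart between genotypes. In ascl1a, atoh7, insm1a, insm1b, sox11a and sox11b, mutant replicate 1 was highest and mutant replicate 2 lowest. This did not hold for sox4a, ascl1b, neurod1 or neurod4. Of all genes tested, 17.4% had that order. It was looked for after the values were seen. The list of proliferating cells, such as the mitotic kinases cdk1 and aurkb, had the same order in 19 of its 23 tested genes. All these genes and factors were measured in the same mutant fish, so they are not independent observations of the order. Summed over the list, wild-type fish held 5569, 5145 and 4233 normalised reads and the mutants 13489, 6744 and 10450.1. The largest part of these sums was pcna, with means of 2690 and 3119, which overlapped between genotypes (log2 change 0.20, adjusted p = 0.618). Of the 23 changes 22 were positive, the exception being ccnb3 at -0.12. Of its 23 genes 7 rose and none fell (median log2 change 1.67). Among them cdk1 had means of 69.6 ± 10.6 and 329 ± 118 (log2 2.16, adjusted p = 0.0303), and aurkb a log2 change of 2.14 (adjusted p = 0.0344). Both calls ended without wild-type replicates 2 or 3 and without mutant replicates 1 or 3, with adjusted p of 0.0780 to 0.173. By edgeR 7 were higher, by DESeq2 17 and by voom none, and 18 were at an unadjusted p under 0.05. No tool called one lower, and none was lower at an unadjusted p under 0.05. The summed rod markers ran the other way, at 615846, 2247760 and 1742910 in the mutants and 2086130 to 3302730 in wild type. The largest part of this sum was rho, with means of 1917730 in wild type and 1043510 in the mutants, which overlapped. Of the 14 rod markers tested 1 change was positive (median log2 change -0.98). In 1 of them, nrl, every mutant lay below every wild-type fish, against 14.8% of all genes. The part of either list in the rise of these factors was not tested.

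**Figure D3:**
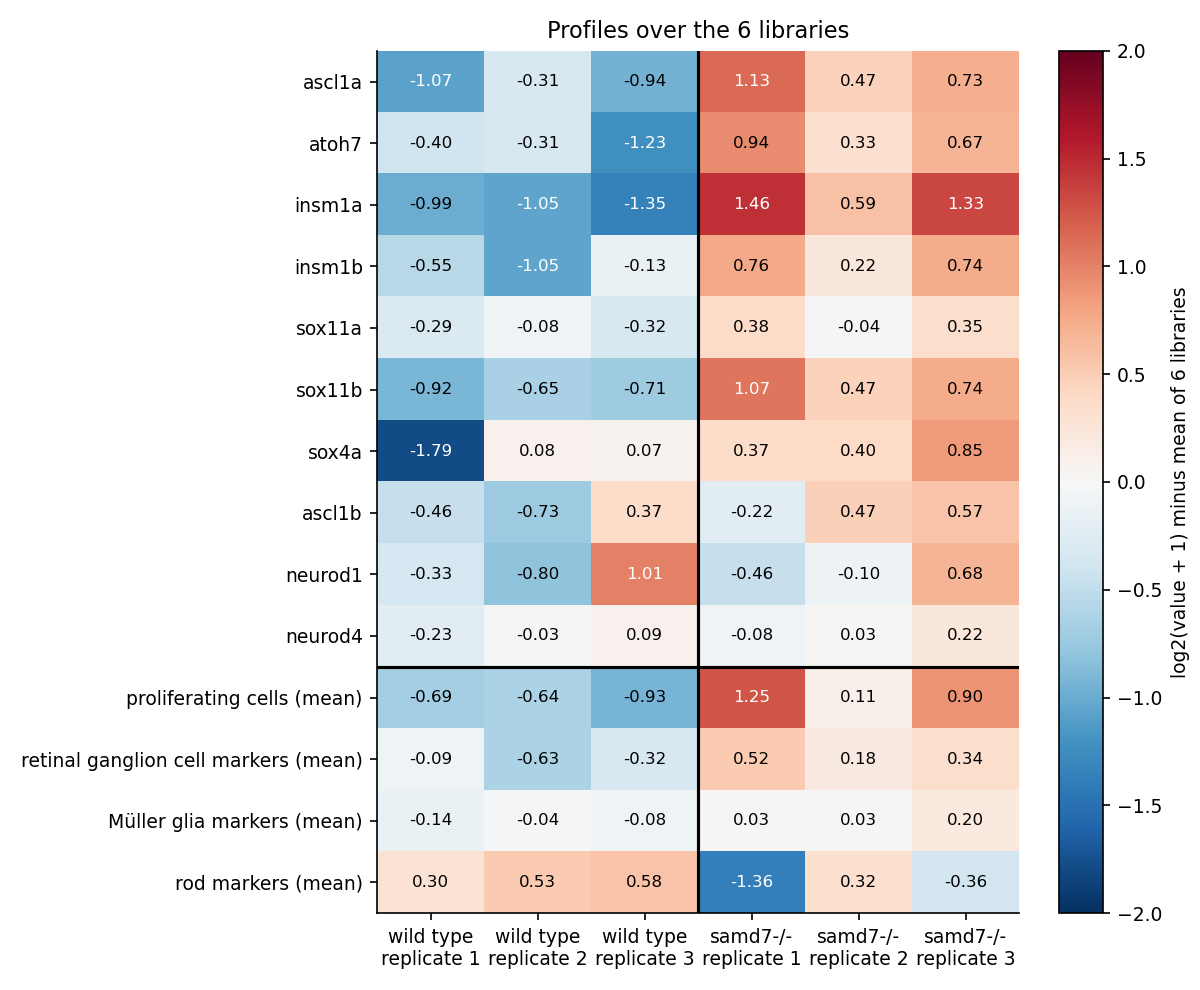
Log2(value + 1) of each factor, and mean over the tested genes of 4 marker lists, minus the mean of the 6 libraries, in each library; red is above and blue below that mean. For insm1a the mutants stand at 1.46, 0.59 and 1.33, and the list of proliferating cells at 1.25, 0.11 and 0.90.

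The nearest profiles among other genes were those of cell cycle genes for insm1a and of more varied genes for sox11b. Likeness was the mean absolute difference between centred log2 profiles over the 6 libraries, among 9784 other genes with a mean of at least 50. For insm1a the nearest were the mitotic kinase cdk1 at 0.064, the cyclin ccnd1 at 0.11 and the passenger complex subunit cdca8 at 0.12. With means of 15.9 in wild type and 94.0 in the mutants, cdca8 met the limit of 50 only through the mutants. For sox11b they were the transcription factor jun at 0.075, the centriole gene poc1b at 0.089 and skor1a, a SKI family co-repressor, at 0.10. For ascl1a the nearest of all was sox11b at 0.13, before cdca7a at 0.14 and si:ch211-69g19.2 at 0.14. Of the 45 pairs among the 10 factors, ascl1a with sox11b was also the closest. These genes rose in the mutants, as the choice of a like profile brings with it. For example, jun had means of 1637 ± 211 and 4818 ± 942.

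Among partners and inhibitors of the proneural factors, 1 of 8 tested genes passed. Of 3 E protein genes tested, none passed limma, edgeR, DESeq2 or voom, and none had an unadjusted p under 0.05; the smallest p was that of tcf3b (705 ± 51.4 and 781 ± 43.7, log2 change 0.15), followed by tcf3a (log2 change 0.49). Of 5 Id genes, id4 rose 1.83-fold, with means of 441 ± 36.5 and 808 ± 136 (log2 0.86, SE 0.15, adjusted p = 0.0408), and the others did not pass by limma. By edgeR and DESeq2 1 of the 5 was higher and by voom none. The id4 call was lost without any library, with adjusted p of 0.0511 and 0.0520 without wild-type replicate 1 and mutant replicate 2, and up to 0.165 without mutant replicate 3. The other losses were at 0.133 and 0.0892 without wild-type replicates 2 and 3 and at 0.155 without mutant replicate 1.

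Of 25 Notch pathway genes, limma called the Delta ligand gene dld higher and none lower. DESeq2 called 3 higher and 1 lower, edgeR and voom called none, and an unadjusted p under 0.05 gave 4 higher and 2 lower. Wild type had a mean of 29.9 ± 9.39 and the mutants one of 89.7 ± 7.49 (log2 1.6, SE 0.31, adjusted p = 0.0497). Delta ligands are classical targets of proneural factors. The median log2 change of the list was 0.17, and 14 of its genes were positive. Every mutant lay above wild type in 6 of the 25 and below it in 2, against 13.3% and 14.8% of all genes. Picked from these after their values were seen, the Delta genes dla (means 144 and 390, adjusted p = 0.0849) and dlb (37.1 and 99.1, 0.0858) were higher without passing. The 2 lower ones also did not pass, namely her12, of the Hes family of Notch targets (146 and 40.8, log2 -1.83, adjusted p = 0.0939), and the ligand gene dll4 (676 and 429, log2 -0.61, adjusted p = 0.218). The call of dld held in 6 of 18 alternatives. Among other settings it was lost with edgeR (adjusted p = 0.0523), voom (0.0531), limma without trend (0.0674), the replicate block (0.0615), upper-quartile scaling (0.0522), no filter (0.0526) and a pseudocount of 0.1 (0.0518). It was also lost without wild-type replicates 2 (adjusted p = 0.115) and 3 (0.0936) and without mutant replicates 1 (0.177), 2 (0.0976) and 3 (0.216).

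Of 11 other neurogenic bHLH factors tested, limma, edgeR and voom called none and DESeq2 called 2 higher. At an unadjusted p under 0.05, 4 were higher and none lower, and 10 of the 11 changes were positive (median 0.28). The closest to the threshold were hes6, a promoter of neurogenesis that opposes other Hes proteins (598 ± 85.4 and 1073 ± 201, log2 change 0.83, adjusted p = 0.0602), and bhlhe22 (2075 ± 59.2 and 2656 ± 162, log2 change 0.35, adjusted p = 0.0851). Of 10 other Sox genes limma, edgeR, DESeq2 and voom called none, and 1, sox4b, had an unadjusted p under 0.05. Next by p was sox5 (1198 ± 191 and 957 ± 80.9, log2 change -0.31, adjusted p = 0.263), whose sign turned with library totals as the scaling.

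The list of neurogenic zinc finger and COE factors, with 7 genes tested, also holds the CoREST co-repressor rcor2, which rose. Its means were 176 ± 22.2 and 399 ± 45.2 (log2 1.18, SE 0.16, adjusted p = 0.0244). The next by p, scrt1b, missed the threshold (adjusted p = 0.0940). All 7 changes tested were positive, with a median of 0.56, and limma, edgeR and voom each called 1 higher and DESeq2 2. Leaving out wild-type replicate 2, or of the mutants replicate 1 or 3, ended the call of rcor2, with adjusted p of 0.0984, 0.127 and 0.148.

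Among 24 genes of early neuronal differentiation, limma and edgeR called 2 higher, DESeq2 5 and voom none, with 21 positive changes and a median of 0.34. None was called lower, while 10 were higher and 2 lower at an unadjusted p under 0.05. Of all genes, 9.38% were higher at that level. The 2 that limma called were stmn1a, a stathmin that destabilises microtubules (means 199 ± 57.4 and 764 ± 221, log2 1.93, adjusted p = 0.0388), and the tubulin gene tubb5 (means 1394 ± 34.5 and 2433 ± 457, log2 0.79, adjusted p = 0.0442). Both calls were lost without wild-type replicates 2 (0.0997 and 0.143) and 3 (0.0696 and 0.0949) and without mutant replicates 1 (0.155 and 0.174) and 3 (0.178 for both), and that of tubb5 also without wild-type replicate 1 (0.0588). The neuronal RNA-binding genes elavl3 and elavl4, picked after their values were seen, had log2 changes of 0.34 and 0.38 and overlapped between genotypes. Of the 18 ganglion cell markers tested, which include atoh7, the synuclein gene sncga rose (4067 ± 232 to 6003 ± 134, log2 change 0.56, adjusted p = 0.0380). By edgeR and voom 1 of the 18 was higher and by DESeq2 6. In 14 of the 18 every mutant lay above every wild-type fish, against 13.3% of all genes. The median log2 change of the 18 was 0.62. The call of sncga was lost without any library except wild-type replicate 1, with adjusted p between 0.0664 without mutant replicate 2 and 0.178 without mutant replicate 3.

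Of 16 genes linked to ascl1a, in either direction, in retinal regeneration of zebrafish, limma, edgeR, DESeq2 and voom called none. At an unadjusted p under 0.05, 2 were higher and none lower. These were myca (829 ± 84.5 and 1269 ± 335, adjusted p = 0.185) and the Wnt inhibitor gene dkk1b (392 ± 107 and 641 ± 158, adjusted p = 0.187). Of 19 genes of retinal progenitors and the retinal margin, the cyclin gene ccnd1 rose (378 ± 47.9 and 1586 ± 438, adjusted p = 0.0133) and none fell; its call ended without wild-type replicate 2 (0.0778) or mutant replicate 3 (0.103). By DESeq2 3 of the 19 were higher, by edgeR and voom 1, and an unadjusted p under 0.05 gave 7 higher and 1 lower. Of 16 photoreceptor precursor factors, the repressor gene prdm1a and the T-box factor gene tbx2b rose and the rod factor gene nrl fell (log2 changes 2.37, 0.63 and -1.36, adjusted p = 0.0319, 0.0360 and 0.0408). By edgeR the count was also 2 higher and 1 lower, by DESeq2 3 higher and 5 lower, and by voom 1 higher and 0 lower, while an unadjusted p under 0.05 gave 5 each way. The 5 in which every mutant lay below wild type were nrl and, short of limma's threshold, rxrga, crx, otx5 and six7 (adjusted p from 0.0773 to 0.191). In another 5 every mutant lay above wild type. Of all genes, 14.8% had every mutant below and 13.3% every mutant above. The calls of prdm1a, tbx2b and nrl ended without wild-type replicates 2 or 3 and without mutant replicates 1 or 3, with adjusted p of 0.0713 to 0.178.

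**Figure D4:**
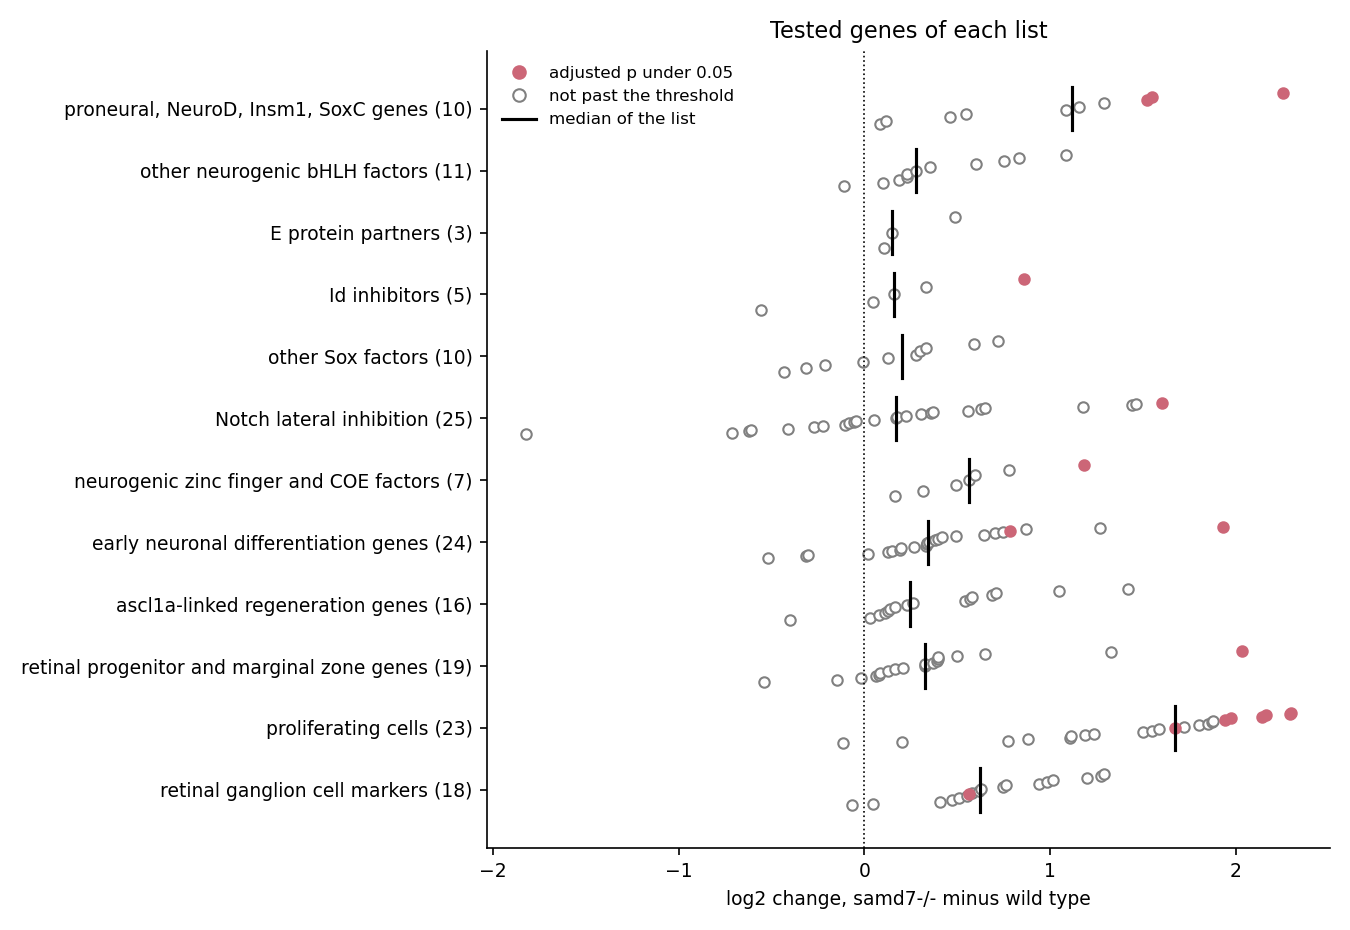
Log2 change (mutant minus wild type) of every tested gene in the set of 10 and in 11 related lists, without photoreceptor precursor factors and the other marker lists, with the number of tested genes in brackets; filled points passed an adjusted p of 0.05 and black lines are list medians. The medians plotted run from 0.15 for E protein genes to 1.67 for proliferating cells, and the 10 factors stand at 1.12.

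Among marker lists of other retinal cells, limma, edgeR and voom called no gene of Müller glia (13 tested), amacrine (12), horizontal (11) or bipolar cells (14). DESeq2 called 2, 1, 0 and 0 of these higher and 0, 1, 2 and 1 lower, and an unadjusted p under 0.05 gave 2, 3, 1 and 2 higher and 0, 1, 3 and 2 lower. Over all 11329 genes it tested, DESeq2 called 469 higher and 751 lower. The summed Müller glia markers ran from 315299 to 317176 in wild type and from 339799 to 370269 in the mutants. The largest part of this sum was glula, with means of 155043 and 176135, which overlapped between genotypes (adjusted p = 0.506). Over the 13 genes tested the median log2 change was 0.10. Every mutant lay above wild type in 2 of them and below it in 0, against 13.3% and 14.8% of all genes. No call by any of these tools was made among 12 microglial, 11 pigment epithelium, 12 endothelial and blood and 2 lens markers, of which 1 endothelial gene had an unadjusted p under 0.05. The pigment epithelium sum varied from 5585 in mutant replicate 2 to 35634 in mutant replicate 3. Of 14 rod markers 1 was called lower and none higher. The 1 was nrl, which is also counted above among the photoreceptor precursor factors. Of 15 cone markers 5 were lower and 1 higher.

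The authors' deposited table calls more of the 10 factors. By its adjusted p, 5 of them were higher in the mutants, at a background of 3.88% of its genes. In the authors' deposited table the adjusted p was 8.01e-15 for insm1a, 1.07e-11 for sox11b, 1.62e-05 for ascl1a, 0.00426 for atoh7 and 0.0224 for insm1b. The same table gives 0.0667 for sox11a, 0.220 for sox4a and 0.466 for ascl1b. DESeq2 run here on the recovered reads also called 5, at a background of 4.14%, and edgeR called 3, at 0.803%. All of these tools and limma placed insm1a, sox11b and ascl1a first among the 10.

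**Figure D5:**
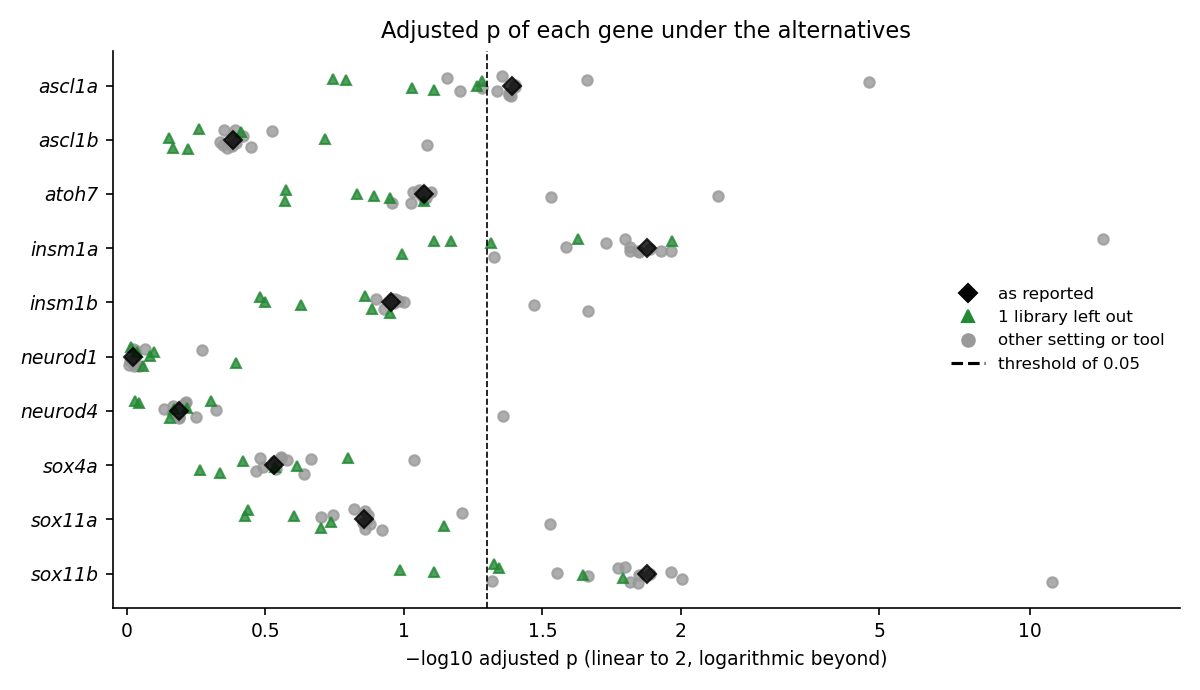
Minus log10 of the adjusted p of each factor in the limma fit (diamonds), with 1 library left out (triangles) and under 12 other settings or tools (circles); the axis is linear to 2 and logarithmic beyond, and the dashed line is the threshold of 0.05. Only insm1a and sox11b stay past the line in all 12 other settings, and each falls below it without certain libraries.

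Neighbouring genes limit a few of these values. By RefSeq's table for the assembly GRCz12tu, atoh7 overlaps the channel gene pkd2l1, and insm1a and sox11b each overlap a long non-coding RNA gene. Without a stated strand setting, reads of such partners cannot be told apart from those of the factor. Positions are not given because the counts were made on the danRer10 build.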

How the data were processed

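RNA-seq libraries of adult zebrafish retina, 3 per genotype, were grouped by labelled genotype. Per the labels' protocols, cDNA was amplified from 10 ng of RNA for 12 cycles with a SMARTer kit, libraries for 15 cycles, and reads were paired and 150 bp long. Per the submitters' processing notes, the build was danRer10 and the tools were HTSeq 0.9.1, STAR 2.7.2b, Trim Galore 0.6.1, R 4.1.3 and DESeq2 1.34.0. Strand setting and annotation are not given in the sources.

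The deposited signal values are read counts that the authors divided by a size factor per library. Every value was a whole multiple of one step (tolerance 0.01 reads), so whole reads were recovered for 100% of the values and used for the count tests. The authors also deposited log2 fold changes and adjusted p-values, per the file headers. These are printed only where named.

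Genotypes were compared with limma 3.58.1 (R 4.3.3, trend and robust moderation) on log2(value + 1) of 11335 genes, with Benjamini-Hochberg adjustment; it called 296. edgeR 4.0.16 (247 calls), DESeq2 1.42.0 (1220) and voom (120) were alternatives, with 3 scalings, 2 filters, 2 pseudocounts, limma without trend, a replicate block and each library left out. Ratios of copies were compared by exact permutation tests. Of the tools, limma and edgeR were tested on simulated data.

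The members, and 22 related lists, were chosen with earlier results of these data known. Of 381 list entries 342 were in the table, 13 of them under a RefSeq synonym. Named are all members, samd7, sox4b and the 3 nearest profiles of ascl1a, insm1a and sox11b. Per neurogenic list up to 4 called genes are named or, with none, the 2 with the smallest p. Of the proliferating cells cdk1 and aurkb, the 2 with the smallest p, are named, and of the ganglion cell markers the called sncga. Genes named beyond these were picked with their values seen. The remaining lists are given as counts, medians and sums, in places with the gene that makes up the largest part of a sum. No library repeated another: between any 2, chi-square of the reads over its degrees of freedom was at least 61.2. The intervals given for changes between genotypes come from the limma fit and take in the spread between fish. Coefficients of variation given for counting alone cover counting error only. One gene of the progenitor list is not reported by name here.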

Additional observations from a re-analysis of the deposited data

How the results depend on the processing

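The number of factors called, 3 in the limma fit, was 7 with library totals as the scaling, 5 with DESeq2 and 2 each with limma without trend, voom and the replicate block, where in the last 3 the missing call was that of ascl1a. With 1 library left out it was 0 to 2, and it was 0 without wild-type replicate 2 and without mutant replicate 3. The number of genes called, 296, was 2128 with library totals, 49 without trend, 1220 with DESeq2, 120 with voom and 17 to 366 with 1 library left out. With library totals the median of all genes moved to 0.36 on the log2 scale and 93.4% of calls were higher, in place of 31.8%. The factors' median there was 1.47, which is 1.11 above that of all genes, as in the main scaling. Another scaling moves all genes by about the same amount, so this difference could hardly change. Over the 10 factors and 18 alternatives, 155 of 180 results kept direction and side of the threshold, 14 lost the call, 6 gained it and 5 changed sign. All 5 were neurod1, with -0.033 by edgeR, -0.047 by DESeq2, and -0.062, -0.29 and -0.24 without wild-type replicate 1, wild-type replicate 2 and mutant replicate 3, in a range of -0.29 to 0.61 with 1 library left out. That of sox5 became 0.036 with library totals. The difference in the sox4a to sox4b ratio ran from -0.22 to 0.88 with 1 library left out, and those of the other pairs kept their sign. The causes were not tested. Whether replicate numbers pair the fish cannot be told from 3 libraries a genotype. Deviations of same-numbered libraries correlated at 0.19, -0.14 and 0.23, and those of differently numbered libraries at -0.34 to 0.17. With the replicate block 289 genes and 2 factors were called. The wild-type libraries held few reads of insm1b and atoh7, 20 to 66. For both genes, counting alone gives a smaller coefficient of variation in wild type than was measured between fish. Whether depth kept these genes from the threshold was not tested.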
